A study of Mus musculus with 21 samples.

Results

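Connexins, cadherins and other cell contact molecules of bone marrow stroma are described here through 9 genes, picked for gap junction and cell-cell adhesion functions in stroma. They were 9 of the 26852 genes in the deposited table: the connexin genes Gja1, Gjc1 and Gjb2, the cadherin genes Cdh2, Cdh11 and Cdh13, and the immunoglobulin-type adhesion genes Cadm1, Ncam1 and Alcam. A filter on low values was passed by 8 of the 9, and Gjb2 did not pass it.

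Human acute myeloid leukemia (AML) was grown in mice, and RNA sequencing was done on mesenchymal cells sorted from their bone marrow as Nes-low, cells with a weak signal of the Nestin reporter. All hosts were Nestin+ NSG mice, an immunodeficient strain that carries green fluorescent protein under Nestin control. Mice given leukemia were 8 to 12 weeks old at transplantation and not conditioned. The leukemias were HL60 and ML1, both established human AML lines, made to release sLP-mCherry, a red protein that enters nearby cells. Of the 21 libraries, 3 came from hosts without leukemia (ctrl), 6 from cherry-positive cells at an early stage (early ch+), 6 from cherry-negative cells at that stage (early ch-) and 6 from a late stage (late).

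Each leukemic group held 3 HL60 libraries and 3 ML1 libraries, and the cherry mark separates cells near leukemia from cells farther away only at the early stage. The labels give the stages no day or week and do not say whether libraries came from separate animals, so every p-value below measures only the spread between these libraries. The study took ch- and ch+ cells from shared marrow, so early libraries may share mice, and the tests between them treat the libraries as independent. For ML1 late, the treatment field of the labels calls the hosts unengrafted, while the titles and the time point field say late, and the libraries were treated as late. The text on RNA extraction speaks of endothelial cells sorted by CD31, while the source field names Nes-low mesenchymal cells.

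Gap junctions are channels that join the interiors of touching cells, and each is built from connexins of both partners. Classical cadherins hold cells together through like molecules on the opposite cell and are anchored inside by catenins, whereas Cdh13 lacks a cytoplasmic tail and sits in the membrane on a lipid anchor. Immunoglobulin-type adhesion molecules bind like or unlike partners on other cells. In bone, Gja1 (Cx43), Cdh2 (N-cadherin) and Cdh11 (OB-cadherin) are well known as junction molecules of osteoblasts and their precursors, and Alcam (CD166) and Ncam1 (CD56) are used as surface markers of stromal cells.

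The values are the regularized log2 values of the authors, and a difference of 1 is a doubling of the normalized level. The depth of each library is unknown, so precision was judged only from the libraries of a group. Regularization draws weak genes toward their mean: the median SD over libraries was 0.0395 for genes with a mean between −2 and 0, and 0.594 for genes with a mean between 4 and 6. Genes with a mean of at least 3.32 on the log2 scale, 12976 in all, were tested with limma, and a gene is called higher or lower where its Benjamini-Hochberg adjusted p was under 0.1.

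Markers of the sorted cells were checked first. Cxcl12, the chemokine of reticular stroma, was the most abundant of 10 mesenchymal markers and reached 15.19 ± 0.35 (log2, SD, n = 3) in ctrl. Nes itself, also on that list, was at 7.39 ± 0.24 in ctrl (n = 3) and 7.30 ± 0.52 in late (n = 6). The endothelial gene Pecam1, which encodes CD31, was at 5.59 ± 0.36 in ctrl (n = 3), and the endothelial markers Tie1 and Cldn5 were under the filter. The pan-leukocyte gene Ptprc was at 2.56 ± 0.06 in ctrl (n = 3), 4.21 ± 1.32 in early ch- (n = 6), 4.79 ± 0.70 in early ch+ (n = 6) and 2.43 ± 0.06 in late (n = 6). Of 11 endothelial markers 9 passed the filter, the most abundant being Eng at 8.41 in ctrl, and no library sorted by CD31 was at hand for comparison.

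**Figure D1:**
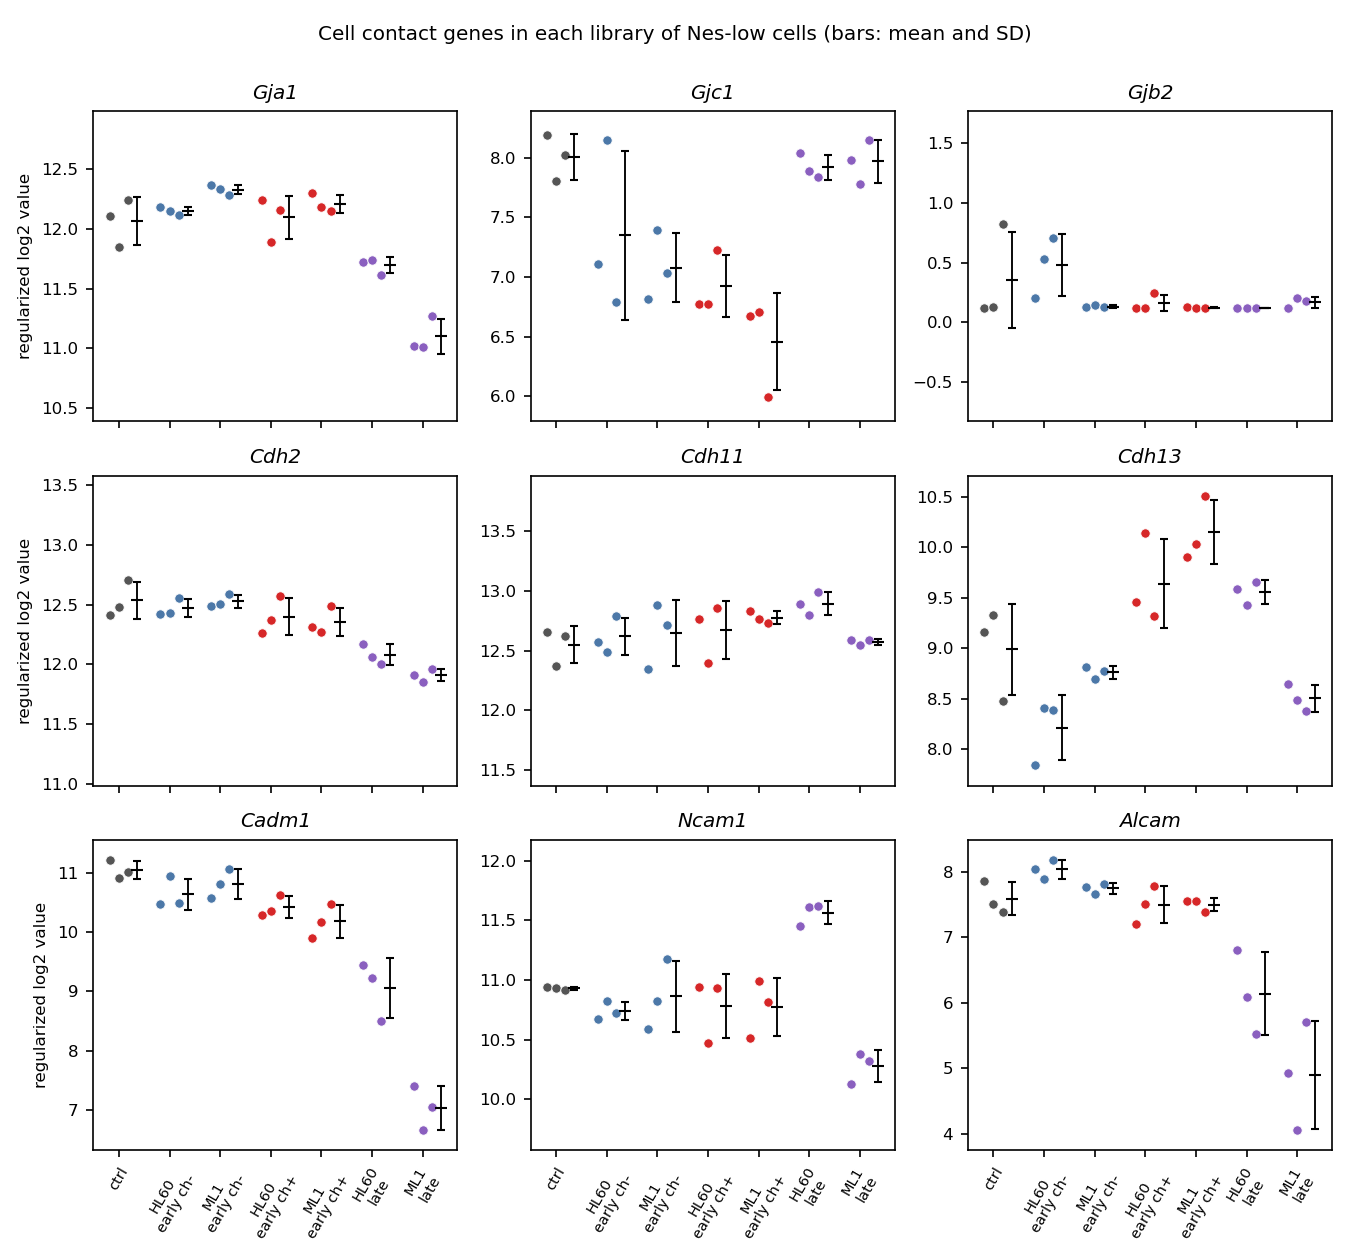
Regularized log2 value (vertical axis) of each of the 9 genes in every library, by group (horizontal axis), with black bars for the mean and SD of 3 libraries. Cadm1 is lowest in ML1 late, between 6.66 and 7.40, and Gjb2 stays under 1 in every library.

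Per kilobase of exon, the ctrl levels of the 9 genes spanned a wide range. Cdh2 was highest at 9.53 (log2 level per kilobase of exon), followed by Cdh11 at 9.40 and Gja1 at 8.71 on the same per-length scale. Below them came Ncam1 at 7.81 and Cadm1 at 7.67, both as log2 level per kilobase. Far lower on the per-length log2 scale were Gjc1 at 5.68, Cdh13 at 5.50 and Alcam at 4.75. Gjb2 was last, with a log2 level of −0.91 per kilobase. In late, Cdh11 led the per-length order at 9.58 and Cdh2 followed at 8.98, while Cadm1 stood at 4.66 and Alcam at 2.69 on that log2 scale per kilobase.

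Against ctrl, 4 of the 8 tested genes were called in late, beside 21.5% of all tested genes: 0 higher (10.2% of all genes) and 4 lower (11.4%). Under a rescaling to the full library sums, described below, 4 were higher and 2 lower, where 93.8% of all called genes were higher. Early ch+ had 2 called genes of 8, beside 6.17%: Cdh13 was higher (3.41% of all genes were) and Gjc1 lower (2.75%). Early ch- had 0 called genes of 8 by limma and 1 with an unadjusted p under 0.05, beside 1.92% (1.13% higher and 0.786% lower). With so few genes, these counts describe the genes named and carry no statement about contact genes as a class. The late and early comparisons share the same 3 ctrl libraries and are therefore set side by side without a measure of overlap.

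Late libraries had a lower total signal, which bears on every late value. Summed on the linear scale, the normalized signal per library, in units of 10⁶, was 11.9 to 14.2 in ctrl (median 12.8), 12.3 to 14.7 in early ch- (median 13.7), 11.2 to 12.7 in early ch+ (median 12.4) and 7.27 to 9.02 in late (median 7.93). Few genes carried the difference: the gene CT010467.1 held a mean of 31.8% of the sum in ctrl and 22.7% in late, and the collagen gene Col1a1 held 10.1% in ctrl and 2.87% in late. Without the 10 most abundant genes the sums were 5.05 to 5.72 in ctrl and 4.76 to 4.93 in late. Rescaling to the full sums shifted the late against ctrl median over the tested genes from 0.019 to 0.712 on the log2 scale, and rescaling without those 10 genes moved it to 0.159. Where a late direction of the 8 tested genes turns under the full-sum rescaling, the change relative to the median of all genes under that rescaling is given too.

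Gja1 (ENSMUSG00000050953, GRCm38 chromosome 10, 56377330 to 56402513, plus strand) encodes Cx43, the main gap junction protein of bone-forming cells. Its log2 values were 12.11, 11.85 and 12.25 in ctrl. Early ch- ranged from 12.12 to 12.37 (median 12.24), and early ch+ from 11.89 to 12.30 (median 12.17). In late, the HL60 libraries were at 11.73, 11.74 and 11.62 and the ML1 libraries at 11.02, 11.01 and 11.27. All 6 late libraries lay below every ctrl and early library, and ML1 late lay below HL60 late without overlap, whereas ctrl and both early groups overlapped.

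Gja1 fell by 0.67 in late against ctrl (SE 0.15, adjusted p = 0.00191, lower in 6 of 6 libraries), a 1.59-fold lower level, but under rescaling to the full library sums its change was 0.02, which is −0.69 relative to the median of all genes. It fell by 0.76 in late against early ch+ and by 0.84 against early ch-, and neither call was kept under that rescaling, with adjusted p of 0.265 and 0.535. By line, ML1 late was lower than ctrl by a log2 fold change of −0.97 (SE 0.12, adjusted p = 5.86e-07), a call that the full-sum rescaling also ended at an adjusted p of 0.323. HL60 late was lower with −0.37 (SE 0.12, adjusted p = 0.0513), a direction that turned to 0.20 under the full-sum rescaling, −0.38 relative to the median. That HL60 call was lost without ctrl replicate 373 (−0.35, adjusted p = 0.125), ctrl replicate 375 (−0.28, adjusted p = 0.24) or HL60 late replicate 399 (−0.33, adjusted p = 0.182), and on rescaling without the 10 most abundant genes (−0.24, adjusted p = 0.238). Tested directly, ML1 late was lower than HL60 late by a log2 difference of −0.59 (SE 0.12, adjusted p = 0.00275), a call ended by the full-sum rescaling at −0.35 (adjusted p = 0.17).

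Gjc1 (ENSMUSG00000034520, chromosome 11, 102799579 to 102819700, minus strand) encodes Cx45. It had log2 values of 8.19, 7.80 and 8.02 in ctrl. The HL60 libraries were at 7.11, 8.15 and 6.79 in early ch- and at 6.77, 6.78 and 7.23 in early ch+. The ML1 libraries were at 6.81, 7.39 and 7.03 in early ch- and at 6.67, 6.71 and 5.99 in early ch+. Every early ch+ library lay below every ctrl library, as did 5 of 6 early ch- libraries, the exception being HL60 replicate 528 at 8.15. In late, values of 7.78 to 8.15 (median 7.93) overlapped ctrl, and each late library was above each early ch+ library.

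Unlike Gja1, Gjc1 had its low values at the early stage and was near ctrl in late. In early ch+ it fell by 1.31 against ctrl (SE 0.26, adjusted p = 0.0023, lower in 6 of 6 libraries), a 2.48-fold lower level. Early ch- gave −0.79 (SE 0.26, adjusted p = 0.173) and did not pass the test, and without HL60 early ch- replicate 528 it was −0.98 (adjusted p = 0.0353). The late value against ctrl was −0.06 (SE 0.26, adjusted p = 0.926). It was 0.63 under the full-sum rescaling, where it passed the test (−0.08 relative to the median), and 0.08 when the 10 most abundant genes were left out of the sums. Late values by line, −0.08 in HL60 (SE 0.30, adjusted p = 0.921) and −0.03 in ML1 (SE 0.30, adjusted p = 0.961), became 0.49 and 0.78 under the full-sum rescaling (−0.09 and −0.06 relative to the median), and the ML1 value then passed (adjusted p = 0.0343). Late was higher than early ch+ by 1.25 (SE 0.22, adjusted p = 6.71e-05) and higher than early ch- by 0.73 (SE 0.22, adjusted p = 0.0156). Early ch+ against early ch- gave −0.52 (SE 0.22, adjusted p = 0.21).

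By line, Gjc1 was the single called gene of 8 in HL60 early ch+ against ctrl, at −1.08 (SE 0.30, adjusted p = 0.0412), beside 5.33% of all genes (2.87% higher and 2.46% lower). This call was lost without ctrl replicate 373 (−0.99, adjusted p = 0.13), HL60 early ch+ replicate 523 (adjusted p = 0.136) or HL60 early ch+ replicate 524 (adjusted p = 0.132), and with no filter on low values (adjusted p = 0.1). In ML1 early ch+, Gjc1 was at −1.55 against ctrl (SE 0.30, adjusted p = 0.00159). The difference between the lines in early ch+ was −0.47 (SE 0.30, adjusted p = 0.767) and was not called.

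Gjb2 (ENSMUSG00000046352, chromosome 14, 57098600 to 57104702, minus strand) encodes Cx26, known from epithelia and the inner ear. Its highest log2 value was 0.82, in 1 ctrl library, and the other ctrl libraries were both at 0.12. Early ch- reached 0.71, early ch+ 0.24 and late 0.20. All groups overlapped near the floor of the table, where regularization leaves little room for a difference, so no fold is given.

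Cdh2 (ENSMUSG00000024304, chromosome 18, 16588877 to 16809246, minus strand) encodes N-cadherin, a classical cadherin of mesenchymal and neural cells. Its log2 values were 12.42, 12.48 and 12.71 in ctrl. Early ch- spanned 12.42 to 12.59 (median 12.50), and early ch+ spanned 12.26 to 12.57 (median 12.34). The late values were 12.17, 12.06 and 12.00 in HL60 and 11.91, 11.86 and 11.96 in ML1. Every late library was below every ctrl and early library, with a narrow gap to the lowest early ch+ value.

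In late, Cdh2 fell by 0.54 against ctrl (SE 0.11, adjusted p = 0.000619, lower in 6 of 6 libraries), a 1.46-fold lower level, but this direction turned to 0.15 under the full-sum rescaling, which is −0.56 relative to the median of all genes. With the 10 most abundant genes left out of the sums it was −0.40 (adjusted p = 0.00892). Against early ch+ it fell by 0.38 (SE 0.09, adjusted p = 0.00256), which the full-sum rescaling turned to 0.23 (−0.40 relative to the median). Against early ch- it fell by 0.50 (SE 0.09, adjusted p = 0.000109), which the full-sum rescaling turned to 0.26 (−0.51 relative to the median). Under that rescaling Cdh2 was thus called higher in late against both early groups. Both lines were lower in late, HL60 by −0.46 (SE 0.12, adjusted p = 0.00771) and ML1 by −0.63 (SE 0.12, adjusted p = 0.000133), and these values became 0.11 and 0.19 under that rescaling (−0.46 and −0.66 relative to the median). ML1 against HL60 in late gave −0.17 (SE 0.12, adjusted p = 0.724), which was not called and turned to 0.07 under the full-sum rescaling (−0.17 relative to the median).

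Cdh11 (ENSMUSG00000031673, chromosome 8, 102632095 to 102785642, minus strand) encodes OB-cadherin, a cadherin of osteoblasts and fibroblasts. It kept a high level in all groups, with log2 values of 12.66, 12.37 and 12.62 in ctrl and a span of 12.34 to 12.99 over all other libraries. HL60 late, at 12.89, 12.80 and 12.99, and ML1 early ch+, at 12.83, 12.77 and 12.73, lay above each ctrl library. HL60 late also lay above ML1 late, at 12.59, 12.54 and 12.59, and above HL60 early ch-, and ML1 early ch+ lay above ML1 late, while the pooled stages overlapped. No comparison called it. The largest value was HL60 late against ctrl at 0.34 (SE 0.14, adjusted p = 0.116), which passed the threshold on rescaling without the 10 most abundant genes (0.48, adjusted p = 0.0183), without HL60 early ch+ replicate 524 (adjusted p = 0.0901) or without ML1 early ch- replicate 543 (adjusted p = 0.08). Under the full-sum rescaling, late against ctrl was called for Cdh11 at 0.88 (adjusted p = 2.44e-05), which is 0.16 relative to the median of all genes, and it was called higher there in late against both early groups and in each line.

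Cdh13 (ENSMUSG00000031841, chromosome 8, 118283733 to 119324921, plus strand) encodes T-cadherin, the member of the family on a lipid anchor, also known as a receptor for adiponectin. Its log2 values were 9.16, 9.33 and 8.48 in ctrl. In early ch- they were 7.84, 8.41 and 8.39 for HL60 and 8.82, 8.70 and 8.77 for ML1. In early ch+ they were 9.45, 10.14 and 9.32 for HL60 and 9.91, 10.03 and 10.51 for ML1. All 6 early ch+ libraries were above all 6 early ch- libraries. Ctrl overlapped both groups, early ch+ only through ctrl replicate 374 at 9.33 and HL60 replicate 525 at 9.32. Late was split by line, at 9.59, 9.43 and 9.66 in HL60 and at 8.64, 8.49 and 8.38 in ML1.

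Cdh13 was the single called gene of 8 between early ch+ and early ch-, beside 6.26% of all genes (3.58% higher and 2.68% lower). It was higher in ch+ by 1.41 (SE 0.23, adjusted p = 0.000126, higher in 6 of 6 libraries), a 2.65-fold level. The lines gave like values, with HL60 at 1.43 (SE 0.23, adjusted p = 0.000162, 1 of 8 genes called beside 3.92%, with 2.27% higher and 1.66% lower) and ML1 at 1.39 (SE 0.23, adjusted p = 0.000281, 1 of 8 called beside 4.25%, with 2.34% higher and 1.91% lower). The difference between the lines in this contrast was −0.04 (SE 0.32, adjusted p = 0.995), with 0 of 8 genes called by limma and 0 with an unadjusted p under 0.05, beside 0.00771% (0.00% higher and 0.00771% lower).

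Against ctrl, Cdh13 was higher in early ch+ by 0.90 (SE 0.28, adjusted p = 0.0707), but this call depended on single libraries. It was lost without ctrl replicate 373 (0.99, adjusted p = 0.12), ctrl replicate 375 (0.65, adjusted p = 0.346), HL60 early ch+ replicate 524 (0.85, adjusted p = 0.119), or ML1 early ch+ replicate 538 (0.90, adjusted p = 0.101), 539 (0.88, adjusted p = 0.115) or 541 (0.78, adjusted p = 0.139). It was also lost with no filter on low values (adjusted p = 0.225) and with no mean-variance trend (adjusted p = 0.143). ML1 early ch+ alone was higher than ctrl by 1.16 (SE 0.23, adjusted p = 0.00166), and HL60 early ch+ gave 0.65 (SE 0.23, adjusted p = 0.126), which passed on rescaling to the full sums (0.75, adjusted p = 0.0718), without ctrl replicate 374 (0.82, adjusted p = 0.0779) or without HL60 early ch+ replicate 525 (0.81, adjusted p = 0.0859).

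From early ch+ to late, Cdh13 fell by 0.86 (SE 0.23, adjusted p = 0.00846), a call that ended at −0.25 (adjusted p = 0.295) under the full-sum rescaling. Late against early ch- gave 0.54 (SE 0.23, adjusted p = 0.113), which passed with the lines kept apart in the fit (adjusted p = 0.0154), after quantile normalization (0.57, adjusted p = 0.0942), under the full-sum rescaling (1.31, adjusted p = 7.13e-06), on rescaling without the 10 most abundant genes (0.61, adjusted p = 0.0683) and without any 1 of 5 libraries. Late against ctrl gave 0.04 (SE 0.28, adjusted p = 0.953), which passed under the full-sum rescaling (0.73, adjusted p = 0.0188), a value close to the median of all genes there. By line, late against ctrl was 0.57 in HL60 (SE 0.23, adjusted p = 0.126) and −0.49 in ML1 (SE 0.23, adjusted p = 0.157, and 0.33 under the full-sum rescaling, −0.52 relative to the median). The tested difference, ML1 against HL60 in late, was −1.05 (SE 0.23, adjusted p = 0.00414), and no ML1 late library reached an HL60 late library. The HL60 late value passed the test without ctrl replicate 374 (0.74, adjusted p = 0.0644), without HL60 early ch+ replicate 524 (0.57, adjusted p = 0.0947) and under the full-sum rescaling (1.14, adjusted p = 0.000617), and the ML1 late value passed without ctrl replicate 375 (−0.74, adjusted p = 0.0289).

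Cadm1 (ENSMUSG00000032076, chromosome 9, 47530173 to 47857637, plus strand) encodes an immunoglobulin-type molecule that binds itself and its relatives on other cells. It had log2 values of 11.22, 10.92 and 11.01 in ctrl. Early ch- ran from 10.48 to 11.08 (median 10.69) and early ch+ from 9.91 to 10.64 (median 10.33). Late fell to 9.45, 9.23 and 8.49 in HL60 and to 7.40, 6.66 and 7.04 in ML1. All late libraries were below all others, ML1 late was below HL60 late, early ch+ was below ctrl without overlap, and early ch- overlapped both.

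The late loss of Cadm1 was the largest change among the 8 genes. It fell by 3.01 against ctrl (SE 0.38, adjusted p = 1.12e-06, lower in 6 of 6 libraries), an 8.03-fold lower level, by 2.26 against early ch+ (SE 0.31, adjusted p = 2.59e-06) and by 2.69 against early ch- (SE 0.31, adjusted p = 1.35e-07). Under the full-sum rescaling the late change against ctrl was −2.31 (adjusted p = 4.83e-06), so its direction did not turn. HL60 late was lower than ctrl by −1.99 (SE 0.22, adjusted p = 1.14e-07), a 3.98-fold lower level. ML1 late was lower by −4.02 (SE 0.22, adjusted p = 6.98e-15), a 16.2-fold lower level. Tested directly, ML1 late was below HL60 late by −2.03 (SE 0.22, adjusted p = 1.3e-07).

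At the early stage Cadm1 was called by line in ML1 early ch+ against ctrl, at −0.86 (SE 0.22, adjusted p = 0.016). HL60 early ch+ gave −0.62 (SE 0.22, adjusted p = 0.127), which passed without HL60 late replicate 399 (adjusted p = 0.0796), and the difference between the lines was −0.24 (SE 0.22, adjusted p = 0.859). With both lines pooled, early ch+ gave −0.74 (SE 0.38, adjusted p = 0.33), while with the lines kept apart in the fit the adjusted p was 0.0147, and with the compared groups alone it was 0.00427. Early ch- gave −0.32 (SE 0.38, adjusted p = 0.802). Early ch+ against early ch- gave −0.42 (SE 0.31, adjusted p = 0.554), which passed with the compared groups alone (adjusted p = 0.0583).

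Ncam1 (ENSMUSG00000039542, chromosome 9, 49502136 to 49798925, minus strand) encodes a neural cell adhesion molecule that also occurs on stromal cells. Its log2 values in ctrl were 10.94, 10.94 and 10.92, the tightest of the 8 genes. Early ch- ran from 10.59 to 11.18 (median 10.77) and early ch+ from 10.47 to 10.99 (median 10.88), and both overlapped ctrl. In late, the HL60 libraries were at 11.45, 11.62 and 11.62 and the ML1 libraries at 10.13, 10.38 and 10.32. The lines lay on opposite sides of ctrl in late, with every HL60 library above and every ML1 library below.

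With the lines pooled, late against ctrl therefore gave −0.01 for Ncam1 (SE 0.25, adjusted p = 0.987). This value was 0.04 after quantile normalization and 0.13 after rescaling without the 10 most abundant genes. After the full-sum rescaling it was 0.68 and passed the test (−0.03 relative to the median). Apart, HL60 late was higher than ctrl by 0.63 (SE 0.16, adjusted p = 0.00663), a 1.55-fold level. ML1 late was lower than ctrl by −0.65 (SE 0.16, adjusted p = 0.00284), a 1.57-fold lower level, a direction that turned to 0.16 under the full-sum rescaling, which is −0.68 relative to the median of all genes. Tested directly, the lines differed in late by −1.28 (SE 0.16, adjusted p = 1.13e-06), and by −1.04 (adjusted p = 0.000173) under the full-sum rescaling. Late against early ch+ gave 0.14 (SE 0.20, adjusted p = 0.739) and against early ch- 0.12 (SE 0.20, adjusted p = 0.78), and both passed under that rescaling, at 0.76 and 0.89. Most of all called genes were higher there in both comparisons.

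Alcam (ENSMUSG00000022636, chromosome 16, 52248996 to 52454074, minus strand) encodes CD166, which binds itself and CD6. Its log2 values were 7.86, 7.51 and 7.39 in ctrl. Early ch- ranged from 7.65 to 8.17 (median 7.85) and early ch+ from 7.20 to 7.78 (median 7.53), overlapping ctrl. Within each line, every early ch+ library lay below every early ch- library, while the pooled early groups overlapped. Every HL60 early ch- library was above every ctrl library. Late values were 6.80, 6.09 and 5.52 in HL60 and 4.93, 4.06 and 5.70 in ML1. Every late library was below every other library, and the lines overlapped in late through ML1 replicate 583 at 5.70 and HL60 replicate 399 at 5.52.

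Alcam fell by 2.07 in late against ctrl (SE 0.35, adjusted p = 6.16e-05, lower in 6 of 6 libraries), a 4.19-fold lower level. It fell by 1.98 against early ch+ (SE 0.29, adjusted p = 5.49e-06) and by 2.37 against early ch- (SE 0.29, adjusted p = 2.55e-07). Under the full-sum rescaling late against ctrl remained lower at −1.38 (adjusted p = 0.00162). HL60 late was at −1.45 against ctrl (SE 0.34, adjusted p = 0.00425) and ML1 late at −2.69 (SE 0.34, adjusted p = 5.38e-07). The difference between the lines in late was −1.24 (SE 0.34, adjusted p = 0.0385), and this call rested on single libraries: it was lost without ML1 late replicate 582 (−0.82, adjusted p = 0.385), HL60 late replicate 397 (−0.91, adjusted p = 0.333) or HL60 late replicate 398 (−1.26, adjusted p = 0.104), with no filter on low values (adjusted p = 0.11) and under the full-sum rescaling (−0.99, adjusted p = 0.127).

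**Figure D2:**
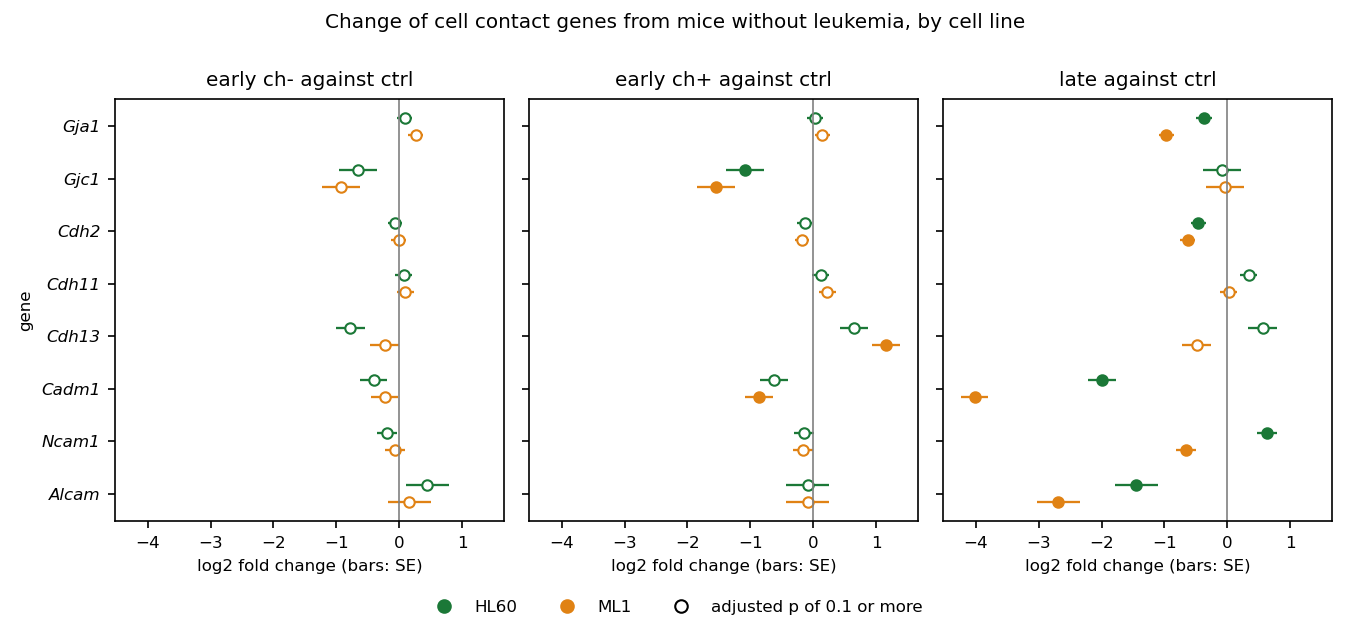
Log2 fold change from ctrl (horizontal axis, bars for the SE) of the 8 tested genes (vertical axis) in early ch-, early ch+ and late, for HL60 and ML1 apart, filled where the adjusted p was under 0.1. In late, Ncam1 is at 0.63 for HL60 and −0.65 for ML1, and under rescaling to the full library sums the ML1 value turns to 0.16, as do the late values of Gja1 in HL60 (0.20), Cdh13 in ML1 (0.33), Cdh2 in HL60 and ML1 (0.11 and 0.19) and Gjc1 in HL60 and ML1 (0.49 and 0.78), the early ch+ value of Alcam in HL60 (0.01) and the early ch- value of Cdh11 in ML1 (−0.03).

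Set by line, HL60 late had 5 of 8 genes called against ctrl, 1 higher and 4 lower, beside 13.7% of all genes (6.46% higher and 7.24% lower). ML1 late had 5 of 8 called, all lower, beside 22% (9.89% higher and 12.1% lower). Under the full-sum rescaling, where 93.1% of all called genes were higher in either line, HL60 late had 3 higher and 2 lower and ML1 late had 2 higher and 2 lower. HL60 early ch- had 0 of 8 called by limma and 2 with an unadjusted p under 0.05, beside 1.57% (0.894% higher and 0.678% lower). ML1 early ch- likewise had 0 of 8 called and 2 with an unadjusted p under 0.05, beside 2.34% (1.42% higher and 0.925% lower). In alternatives, Cdh13 in HL60 early ch- (−0.78, adjusted p = 0.114) passed without ctrl replicate 375, HL60 early ch+ replicate 524 or ML1 early ch+ replicate 541, and Gjc1 in ML1 early ch- (−0.93, adjusted p = 0.14) passed under the full-sum rescaling or without HL60 early ch- replicate 528. ML1 early ch+ had 3 of 8 called, 1 higher and 2 lower, beside 6.69% (3.47% higher and 3.22% lower). Between late and early ch+, 6 of 8 genes were called, 1 higher and 5 lower, beside 19.7% (8.79% higher and 10.9% lower), and between late and early ch- 5 of 8 were called, 1 higher and 4 lower, beside 22.5% (10.2% higher and 12.3% lower). The full-sum rescaling made these 4 higher and 2 lower against early ch+ and 5 higher and 2 lower against early ch-. Most of all called genes were then higher in both comparisons, by the shares given in the last section.

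The direct comparison of lines within late called 5 of 8 genes, all lower in ML1 (Gja1, Cdh13, Cadm1, Ncam1 and Alcam), beside 4.09% of all genes (0.932% higher and 3.16% lower). In early ch+ the same comparison called 0 of 8 by limma and gave 1 with an unadjusted p under 0.05, beside 0.0154% (0.00% higher and 0.0154% lower). In early ch- it called 0 of 8 and gave 1 with an unadjusted p under 0.05, beside 0.0539% (0.0154% higher and 0.0385% lower). Under the full-sum rescaling the late calls of Gja1 and Alcam were lost.

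Marker lists of other cell types moved with these groups, and their part in the changes of the contact genes was not tested. Of 11 osteoblast markers, 9 were lower and 1 higher in late against ctrl, and 10 of 11 were lower in ML1 late than in HL60 late. Their summed log2 level, led by Col1a1, was 20.27 to 20.72 in ctrl, 20.00 to 20.48 in early ch-, 19.86 to 20.09 in early ch+, 18.64 to 19.02 in HL60 late and 16.39 to 17.07 in ML1 late. In early ch+ 0 of the 11 were called by limma and 1 had an unadjusted p under 0.05, yet each library of that group had a lower sum than every ctrl library. In bulk RNA, fewer cells of a type and less RNA per cell cannot be told apart, for osteoblast genes as for Gja1, Cdh2, Cadm1 and Alcam. Of 11 tested chondrocyte markers, 11 were lower in late and 10 in early ch+ against ctrl. All of them except Col11a2 were also lower in early ch+ than in early ch-. Their summed log2 level, led by Col2a1 in ctrl, was 16.43 to 17.41 in ctrl and 15.63 to 16.65 in early ch-. It was 14.10 to 15.34 in early ch+, 13.68 to 14.30 in HL60 late and 11.73 to 12.35 in ML1 late. The mesenchymal list, led by Cxcl12, moved the other way, with 7 of 10 higher and 1 lower in late, 6 of 10 higher in early ch+, and a summed log2 level of 15.55 to 16.15 in ctrl, 16.28 to 16.86 in early ch+ and 16.82 to 17.10 in late.

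Of 11 smooth muscle and pericyte markers, 7 were lower in early ch+ than in ctrl, and the same 7 were lower than in early ch-. Between late and early ch+, 7 were higher in late, while Cspg4 was lower (−1.38, adjusted p = 3.68e-06). Against ctrl, Acta2, Myh11, Tagln, Rgs5, Cspg4 and Lmod1 were lower in late, and Notch3 and Abcc9 were higher. Their summed log2 level, led by Rgs5 in ctrl, was 14.30 to 15.14 in ctrl, 13.91 to 14.65 in early ch-, 13.23 to 13.49 in early ch+ and 13.99 to 14.19 in late. The mean over the list overlapped between ctrl (9.34 to 10.17) and late (8.77 to 9.43), though the sums did not. Of 7 tested Schwann and neural markers, 4 were lower in early ch+ and 1 higher and 2 lower in late, with a summed log2 level, led by S100b in ctrl and by Ngfr in late, of 8.92 to 9.41 in ctrl, 8.46 to 9.39 in early ch+ and 10.08 to 11.03 in late. The defining glial marker Gfap was at the floor in all groups, with −1.10 in ctrl.

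Blood and red cell markers were raised in both early groups, although the study removed blood cells with CD45 beads and stained for CD45 and Ter119 before the sort. All 10 tested blood markers were higher in early ch+ than in ctrl and 9 of 10 in early ch-, and in late 3 were lower. Their summed log2 level, led by Lyz2, was 8.12 to 9.30 in ctrl, 10.69 to 11.70 in early ch-, 10.28 to 11.55 in early ch+ and 6.95 to 8.09 in late, and the B cell marker Cd79a stayed near the floor at 0.42 in ctrl. All 8 tested red cell markers were higher in both early groups, and 4 were lower in late, with a summed log2 level led by Hbb-bs of 8.41 to 9.47 in ctrl, 12.32 to 13.33 in early ch-, 12.10 to 13.66 in early ch+ and 6.62 to 7.07 in late. Of 5 tested skeletal muscle markers, 4 were higher and 1 lower in early ch+, and 1 was lower in late, while in early ch- 0 were called by limma and 5 had an unadjusted p under 0.05. Their summed log2 level was 6.51 to 7.57 in ctrl, 7.60 to 8.73 in early ch-, 7.37 to 9.32 in early ch+ and 6.02 to 6.55 in late, and the most abundant gene was Pax7 in ctrl and Acta1 in early ch+. Of 9 tested endothelial markers, 1 was higher and 1 lower in late against ctrl, in early ch+ 0 were called by limma and 0 had an unadjusted p under 0.05, and 1 was higher and 5 were lower in late against early ch+ (3 higher and 1 lower under the full-sum rescaling), a contrast in which Cdh13 also was lower. Their summed log2 level, led by Eng, was 9.39 to 9.62 in ctrl, 9.24 to 10.29 in early ch+ and 9.51 to 10.02 in late. Between early ch+ and early ch-, where Cdh13 was higher, no tested endothelial marker was called by limma with the lines pooled. The lowest adjusted p was 0.477 (Stab2). By line, the summed endothelial log2 level was 9.2 to 9.8 in HL60 early ch- and 10.0 to 10.3 in HL60 early ch+. In ML1 it was 9.5 to 9.8 in early ch- and 9.2 to 9.8 in early ch+. Stab2 was at 4.87 to 6.13 in HL60 early ch- and 6.89 to 7.38 in HL60 early ch+. For ML1, Stab2 was at 5.62 to 5.90 in early ch- and 5.13 to 5.33 in early ch+.

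Further connexins and pannexins were read from a list of 20 genes, of which 14 had a value and 5 passed the filter. In late against ctrl, 0 were called higher and 2 lower, beside 10.2% and 11.4% of all tested genes, with a median of −0.738 beside 0.019 over all genes, and under the full-sum rescaling 2 were higher and 1 lower, where 8302 of 12976 genes were called and 93.8% of those were higher. In early ch+ against ctrl, 0 were higher and 3 lower, beside 3.41% and 2.75%, with a median of −1.740 beside 0.011, and in early ch- 0 were called by limma and 0 had an unadjusted p under 0.05. Panx3, a pannexin channel of osteoblasts and hypertrophic cartilage, was at a log2 mean of 9.92 ± 0.34 in ctrl (n = 3), 8.18 ± 0.37 in early ch+ (n = 6) and 7.01 ± 0.95 in late (n = 6). It fell by 2.91 in late (SE 0.35, adjusted p = 6.11e-07) and by 1.74 in early ch+ (SE 0.35, adjusted p = 0.00247), and it was lower in ML1 late than in HL60 late by −1.50 (SE 0.26, adjusted p = 0.000318).

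Gjc3, a connexin of myelinating glia, was at 7.03 ± 0.25 in ctrl (n = 3), 3.71 ± 0.74 in early ch+ (n = 6) and 5.48 ± 0.76 in late (n = 6). It fell by 3.31 in early ch+ (SE 0.46, adjusted p = 2.29e-05) and by 1.54 in late (SE 0.46, adjusted p = 0.0184), and the late call was lost under the full-sum rescaling (−0.85, adjusted p = 0.11). Between the early groups it was lower in ch+ by −2.86 (SE 0.38, adjusted p = 4.35e-06). Gja4, a connexin of vessel walls, was lower in early ch+ against ctrl by −2.24 (SE 0.48, adjusted p = 0.00404) and higher in late than in early ch+ by 1.50 (SE 0.39, adjusted p = 0.00654). Gjc1, Gjc3 and Gja4 thus shared low values in early ch+ and higher values in late than in early ch+.

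Of 41 further cadherins and protocadherins, 38 had a value and 20 passed the filter. In late against ctrl, 4 were higher and 5 lower, beside 10.2% and 11.4% of all genes, with a median log2 fold change of −0.515 beside 0.019 for all genes, and under the full-sum rescaling, with its 8302 called genes, 7 were higher and 2 lower. In early ch+, 1 was higher and 2 lower, beside 3.41% and 2.75% (median −0.072 beside 0.011), and in early ch- 0 were called by limma and 3 had an unadjusted p under 0.05. Fat3, a giant atypical cadherin, fell in late by 3.07 (SE 0.35, adjusted p = 3.09e-07), from 12.41 ± 0.25 in ctrl (n = 3) to 9.34 ± 1.11 (n = 6). Pcdh7, a protocadherin, fell in late by 2.32 (SE 0.34, adjusted p = 1e-05). Like Cadm1, both were lower in ML1 late than in HL60 late, Fat3 by −1.86 (SE 0.20, adjusted p = 1.47e-07) and Pcdh7 by −1.90 (SE 0.17, adjusted p = 4.9e-09).

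Celsr1, a planar polarity cadherin, fell in late by 1.61 (SE 0.50, adjusted p = 0.0245), a call lost under the full-sum rescaling (−0.92, adjusted p = 0.107). Fat4, another giant atypical cadherin, was higher in early ch+ by 0.67 (SE 0.18, adjusted p = 0.0281) and in late by 0.57 (SE 0.18, adjusted p = 0.0257). Pcdh1 was lower in early ch+ by −1.66 (SE 0.26, adjusted p = 0.000129) and higher in late than in early ch+ by 1.29 (SE 0.21, adjusted p = 3.7e-05). Cdh6 was lower in early ch+ by −1.29 (SE 0.41, adjusted p = 0.0768), a call lost under the full-sum rescaling (adjusted p = 0.114), and higher in late than in early ch+ by 2.22 (SE 0.34, adjusted p = 1.19e-05). Between the early groups, Cdh19, a cadherin of Schwann cell precursors, was lower in ch+ by −1.18 (SE 0.25, adjusted p = 0.00346).

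Catenins and junction scaffolds sit on the inner side of these contacts. Of 19 listed symbols, 17 had a value and 13 passed the filter, and Mllt4, without a value, is the older name of Afdn, also listed. In late against ctrl, 1 was higher and 2 were lower, beside 10.2% and 11.4% of all genes, with a median of −0.087 beside 0.019 for all genes, and under the full-sum rescaling, with its 8302 called genes, 6 were higher and 1 was lower. In early ch+, 0 were higher and 2 lower, beside 3.41% and 2.75% (median −0.179 beside 0.011), and in early ch- 0 were called by limma and 1 had an unadjusted p under 0.05. Ctnnb1, which encodes beta-catenin and links cadherins to actin and to Wnt signaling, went from 12.25 ± 0.17 in ctrl (n = 3) to 11.66 ± 0.19 in early ch+ (n = 6) and 11.33 ± 0.35 in late (n = 6).

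Ctnnb1 fell by 0.92 in late (SE 0.16, adjusted p = 6.81e-05) and by 0.59 in early ch+ (SE 0.16, adjusted p = 0.026), and the late call was lost under the full-sum rescaling (−0.23, adjusted p = 0.176). Jup, which encodes gamma-catenin, moved in both directions: it was lower in early ch+ by −0.86 (SE 0.24, adjusted p = 0.0324) and higher in late by 0.79 (SE 0.24, adjusted p = 0.0196). Pkp4, a plakophilin of the p120 catenin family, fell in late by 1.50 (SE 0.24, adjusted p = 3.81e-05). Between the early groups, Cgnl1 (paracingulin) was higher in ch+ by 0.94 (SE 0.23, adjusted p = 0.00999) and the scaffold gene Tjp1 by 0.34 (SE 0.10, adjusted p = 0.0378), while Ctnna3 was lower by −1.17 (SE 0.31, adjusted p = 0.024). Ctnnal1 was lower in late than in early ch- by −0.87 (SE 0.32, adjusted p = 0.0625), a call lost under the full-sum rescaling (−0.10, adjusted p = 0.788).

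The list of immunoglobulin-type adhesion molecules held 40 further symbols, of which 35 had a value and 19 passed the filter. Of the 5 without a value, 4 were older names of the nectin genes that are also on the list (Pvrl1 to Pvrl4), and the other was Cntn5. In late against ctrl, 5 were higher and 3 lower, beside 10.2% and 11.4% of all genes, with a median of 0.132 beside 0.019 for all genes, and under the full-sum rescaling, with its 8302 called genes, 12 were higher and 1 lower. In early ch+, 2 were higher and 4 lower, beside 3.41% and 2.75% (median 0.038 beside 0.011), and in early ch- 1 was higher and 0 lower, beside 1.13% and 0.786%. Jam2, a junctional adhesion molecule, fell in late by 1.47 (SE 0.22, adjusted p = 1.53e-05). Cadm3, a relative and partner of Cadm1, fell in late by 1.41 (SE 0.43, adjusted p = 0.0231), a call lost under the full-sum rescaling (−0.72, adjusted p = 0.139), and was higher in early ch+ than in early ch- by 1.44 (SE 0.36, adjusted p = 0.012). Nectin2 was higher in late by 1.14 (SE 0.47, adjusted p = 0.0982), a call lost after quantile normalization (adjusted p = 0.111).

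Chl1, a relative of L1cam, was higher than ctrl in every leukemic group, by 0.67 in early ch- (SE 0.18, adjusted p = 0.0639), by 0.60 in early ch+ (SE 0.18, adjusted p = 0.0589) and by 1.13 in late (SE 0.18, adjusted p = 3.02e-05), and the early ch- call was lost under the full-sum rescaling (adjusted p = 0.171). Mcam (CD146), a surface marker of pericytes, was lower in early ch+ by −1.99 (SE 0.36, adjusted p = 0.000733) and higher in late than in early ch+ by 1.52 (SE 0.30, adjusted p = 0.000317). Bcam, a laminin-binding molecule, gave −2.25 in early ch+ (SE 0.40, adjusted p = 0.000591) and 1.35 in late against early ch+ (SE 0.33, adjusted p = 0.00325). L1cam, found on neurons and Schwann cells, was lower in early ch+ than in early ch- by −2.44 (SE 0.35, adjusted p = 1.74e-05), and its early ch+ call against ctrl, at −1.38 (SE 0.43, adjusted p = 0.0664), was lost under the full-sum rescaling (adjusted p = 0.106). Icam1, a receptor for leukocyte integrins, was higher in late than in early ch- by 1.66 (SE 0.37, adjusted p = 0.00144).

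**Figure D3:**
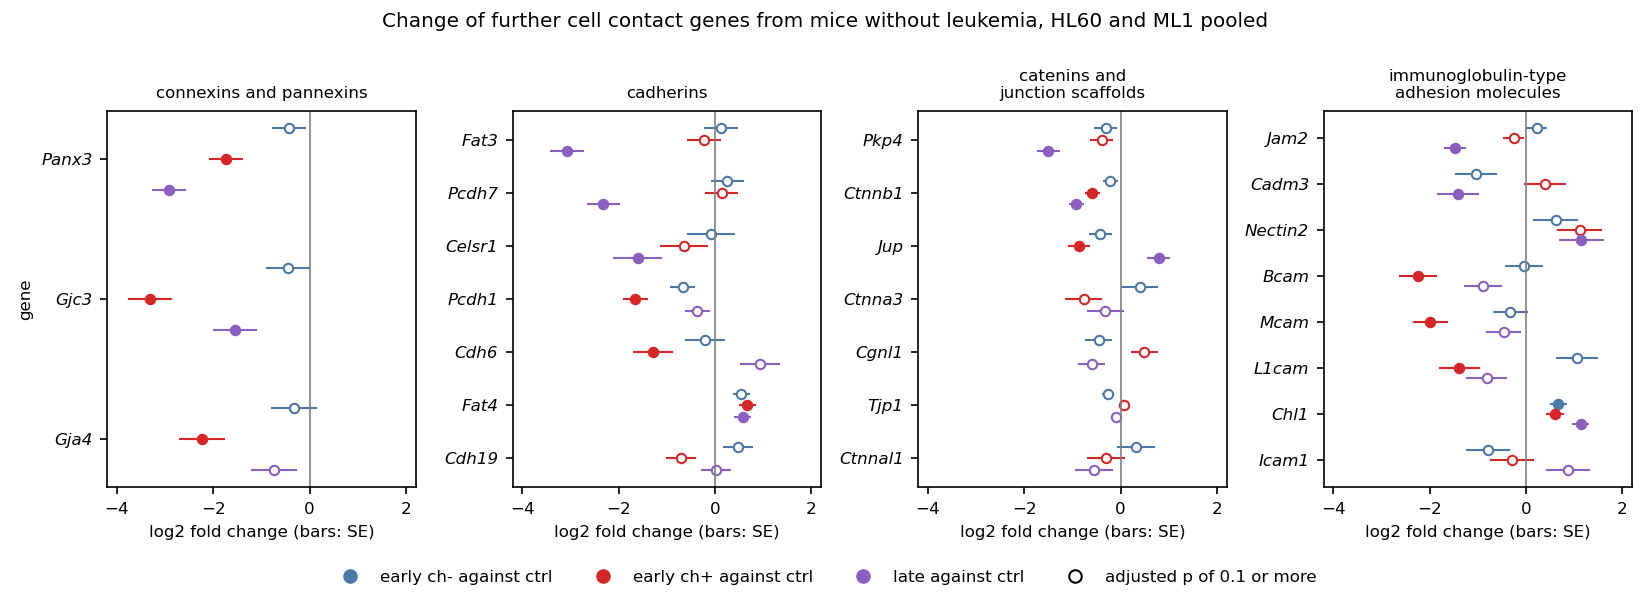
Log2 fold change from ctrl (horizontal axis, bars for the SE) of named genes of the 4 wider lists (vertical axis) in early ch-, early ch+ and late with both lines pooled, filled where the adjusted p was under 0.1. Panx3, Fat3 and Pcdh7 reach −2.91, −3.07 and −2.32 in late, and Gjc3, Bcam and Mcam reach −3.31, −2.25 and −1.99 in early ch+.

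Across libraries, the genes that were low in late varied together. Over the 21 libraries, Pearson's r was 0.939 between Cadm1 and Alcam, 0.919 between Cdh2 and Cadm1, 0.916 between Gja1 and Alcam, and 0.913 between Gja1 and Cadm1. Gja1 and Gjc1, both connexins, had an r of −0.523. These values describe libraries that share their groups, so they restate differences between groups and libraries and are given without a p.

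The genes most like each contact gene over the same 21 libraries were picked by the highest r among all tested genes. For Gja1 they were Phex (0.964), itself on the osteoblast list, and Robo2 (0.957). Cdh2 had Ano6 (0.941) and Nrp2 (0.938). Cadm1 had Sgms2 (0.986) and Col11a1 (0.986). Alcam had Entpd3 (0.958) and Cgref1 (0.954). Lower values were found for Gjc1 with Tmem51 (0.811) and Rgs4 (0.802) and for Cdh13 with Megf10 (0.861) and Ildr2 (0.844). The lowest were those of Cdh11, with Ptprd (0.762) and Nedd9 (0.746), and of Ncam1, with Kit (0.748) and Smoc2 (0.715).

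Promoter sequences from RefSeq (GRCm38.p6) were at hand for 3 of the 9 genes: Gja1, Gjb2 and Alcam. The 250 bases before the RefSeq start, which for Gja1 lies upstream of the gene start given above, are printed for Gja1 and Gjb2, the most and the least abundant of the 3 connexin genes. Both strands were searched for TGANTCA (AP-1), CACCTG (the E-box of SNAI and ZEB factors), GGGCGG (GC box) and TGTGGT (RUNX), and capitals mark the matches. Gja1 is at chr10:56377050-56377299 on the plus strand, and Gjb2 is at chr14:57104703-57104952 on the minus strand.
Gja1: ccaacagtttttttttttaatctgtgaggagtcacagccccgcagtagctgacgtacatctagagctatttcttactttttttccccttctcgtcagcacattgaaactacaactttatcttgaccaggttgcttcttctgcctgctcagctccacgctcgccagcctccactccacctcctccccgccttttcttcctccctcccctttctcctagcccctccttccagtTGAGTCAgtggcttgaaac
Gjb2: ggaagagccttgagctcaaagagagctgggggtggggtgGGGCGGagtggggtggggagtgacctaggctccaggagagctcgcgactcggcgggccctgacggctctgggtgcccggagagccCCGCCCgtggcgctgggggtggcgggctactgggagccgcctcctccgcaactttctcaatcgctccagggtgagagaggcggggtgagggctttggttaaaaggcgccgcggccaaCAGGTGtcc
Gja1 held TGAGTCA, a match to TGANTCA that starts 19 bases before the RefSeq start at the end of the window, and 6.87% of 27025 promoters of this length hold that motif. Gjb2 held GGGCGG on both strands, a motif of 32.9% of promoters. It also held CACCTG on the opposite strand, a motif of 17.1% of promoters. The Alcam window held CACCTG and GGGCGG and is not printed because it overlaps an annotated exon. TGTGGT, present in 14.2% of promoters, was in none of the 3 windows. A match is a run of letters and shows neither binding nor an effect on these genes.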

How the data were processed

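The table deposited by the authors holds regularized log2 values from DESeq2 1.10.1 by the labels (1.22.2 by the paper), made after alignment to mm10 with STAR and counting with RSEM 1.2.29, for 26852 genes and 21 libraries. The paper names log10, which the highest values do not allow. No further transformation was done. Genes with a mean of at least 3.32 were kept (12976). Means of 4 stage groups, and of 7 stage and line groups, were compared by two-sided moderated tests in limma 3.58.1 under R 4.3.3, the prior variance following mean level, with Benjamini-Hochberg adjustment over the kept genes of each comparison and a threshold of 0.1. The code was tested on simulated data. Its first criterion, on how many planted changes were called, was not met and was replaced after that result was seen, with the fit unchanged. Tables and figures were made with Python 3.11.15. Gene positions and exon lengths are from GENCODE mouse release 21. Members and lists (connexins and pannexins, cadherins, catenins and junction scaffolds, immunoglobulin-type molecules, and the marker lists) were chosen with earlier results of these data known. Genes named are the members, up to 3 called genes of largest change per list and pooled comparison, the 2 genes most correlated with each member, and Nes, Pecam1 and Ptprc. The most abundant or lowest genes of the marker lists, and the genes with large shares of the sums, were named after the values had been seen.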

Additional observations from a re-analysis of the deposited data

Results flagged for a closer look

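HL60 early ch+ replicate 524 lay far from the other libraries of early ch+ for Gja1, at 11.89, and for Cdh11, at 12.39, the lowest value of 6 in both cases. By chance alone about 1 in 20 groups of this size would show such a library, and 24 groups of 6 were looked at. In late, ML1 was lower than HL60 by a log2 difference of −0.59 for Gja1, −1.05 for Cdh13, −2.03 for Cadm1, −1.28 for Ncam1 and −1.24 for Alcam, so the pooled late values stand for lines that differ. The Gja1 and Alcam calls were lost under the full-sum rescaling, and the Alcam call also rested on single libraries.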

How the results depend on the processing

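Limits include the scaling, the small groups and early libraries that may share mice, and the cause of the shifts below was not tested. No paired analysis was done, because the groups share no replicate numbers and the labels do not say which early ch+ and early ch- libraries came from 1 mouse. Within each line the early ch+ and early ch- numbers run in parallel, but pairing by that order would be a guess. Rescaling to sums without the 10 most abundant genes was chosen after the data had been seen. With no filter on low values, the genes called became 4515 for late vs early ch- (from 2920), 427 for HL60 early ch+ vs ctrl (from 692), 133 for HL60 early ch- vs ctrl (from 204), 178 for ML1 early ch- vs ctrl (from 304), 8 for ML1 vs HL60 in early ch+ (from 2) and 1 for ML1 vs HL60 in early ch- (from 7). With quantile normalization, the direction turned for Ncam1 0.0368 in late vs ctrl, Cdh11 −0.0323 in late vs early ch+. With rescaling to the full library sums, the genes called became 8302 for late vs ctrl (from 2795), 9031 for late vs early ch+ (from 2555), 10161 for late vs early ch- (from 2920), 5527 for HL60 late vs ctrl (from 1778) and 8781 for ML1 late vs ctrl (from 2851). With rescaling to the full library sums, the direction turned for Gja1 0.0235, Gjc1 0.63, Cdh2 0.15 and Ncam1 0.68 in late vs ctrl, Gja1 0.0645, Cdh2 0.0311 and Ncam1 0.13 in early ch+ vs early ch-, Cdh2 0.23 in late vs early ch+, Cdh2 0.26 in late vs early ch-. It also turned for Gja1 0.20, Gjc1 0.49 and Cdh2 0.11 in HL60 late vs ctrl, Alcam 0.0102 in HL60 early ch+ vs ctrl, Gja1 0.0662 and Cdh2 0.0517 in HL60 early ch+ vs early ch-, Gjc1 0.78, Cdh2 0.19, Cdh13 0.33 and Ncam1 0.16 in ML1 late vs ctrl. It also turned for Cdh11 −0.0313 in ML1 early ch- vs ctrl, Gja1 0.0628, Cdh2 0.0104 and Ncam1 0.0886 in ML1 early ch+ vs early ch-, Cdh2 0.0734 in ML1 vs HL60 in late, Cdh2 −0.0472 and Cdh11 −0.0783 in ML1 vs HL60 in early ch-. It also turned for Cdh13 0.0189 in the line difference of ch+ vs ch-. With rescaling to sums without the 10 most abundant genes, the direction turned for Gjc1 0.0814 and Ncam1 0.13 in late vs ctrl, Alcam 0.0035 in early ch+ vs ctrl, Cdh2 0.0315 in early ch- vs ctrl, Gjc1 0.0529 in HL60 late vs ctrl. It also turned for Alcam 0.0081 in HL60 early ch+ vs ctrl, Cdh2 0.0132 in HL60 early ch- vs ctrl, Gjc1 0.11 in ML1 late vs ctrl, Cdh2 0.0498 in ML1 early ch- vs ctrl. With an adjusted p threshold of 0.05, the genes called became 512 for early ch+ vs ctrl (from 800) and 156 for early ch- vs ctrl (from 249). The share of higher genes among those called under rescaling to the full library sums was 93.8% in late vs ctrl (from 47.3%), 66.7% in early ch+ vs ctrl (from 55.4%), 41.9% in early ch- vs ctrl (from 59%), 78.6% in early ch+ vs early ch- (from 57.1%), 93.5% in late vs early ch+ (from 44.6%), 95.3% in late vs early ch- (from 45.3%), 93.1% in HL60 late vs ctrl (from 47.1%), 70.3% in HL60 early ch+ vs ctrl (from 53.9%), 74.8% in HL60 early ch+ vs early ch- (from 57.8%), 93.1% in ML1 late vs ctrl (from 45%), 32.3% in ML1 early ch- vs ctrl (from 60.5%), 78.6% in ML1 early ch+ vs early ch- (from 55.1%) and 63% in ML1 vs HL60 in late (from 22.8%). The share of higher genes among those called under rescaling to sums without the 10 most abundant genes was 63.9% in late vs ctrl (from 47.3%), 70.8% in early ch+ vs ctrl (from 55.4%), 71.6% in early ch- vs ctrl (from 59%), 64% in HL60 late vs ctrl (from 47.1%), 70.8% in HL60 early ch+ vs ctrl (from 53.9%), 71.1% in HL60 early ch- vs ctrl (from 56.9%), 60.4% in ML1 late vs ctrl (from 45%), 65.4% in ML1 early ch+ vs ctrl (from 51.8%) and 71.5% in ML1 early ch- vs ctrl (from 60.5%). Over the omissions of each library in turn, the genes called ranged from 136 to 280 in early ch- vs ctrl, 106 to 227 in HL60 early ch- vs ctrl, 295 to 541 in HL60 early ch+ vs early ch-, 180 to 340 in ML1 early ch- vs ctrl, 0 to 6 in ML1 vs HL60 in early ch+, 0 to 10 in ML1 vs HL60 in early ch- and 0 to 2 in the line difference of ch+ vs ch-. Gjc1 ranged from −0.16 to 0.0333 in late vs ctrl, −0.18 to 0.0095 in HL60 late vs ctrl, −0.13 to 0.0587 in ML1 late vs ctrl, −0.0415 to 0.14 in ML1 vs HL60 in late and −0.55 to 0.13 in ML1 vs HL60 in early ch- over the same omissions. Gjc1 ranged from −0.59 to 0.0849 in the line difference of ch+ vs ch-. Cdh13 ranged from −0.21 to 0.21 in late vs ctrl and −0.22 to 0.21 in the line difference of ch+ vs ch- over the same omissions. Ncam1 ranged from −0.15 to 0.15 in late vs ctrl, −0.0673 to 0.0502 in early ch+ vs early ch-, −0.0211 to 0.28 in late vs early ch-, −0.23 to 0.0068 in HL60 early ch+ vs ctrl and −0.0354 to 0.20 in HL60 early ch+ vs early ch- over the same omissions. Ncam1 ranged from −0.22 to 0.0699 in ML1 early ch- vs ctrl, −0.23 to 0.0642 in ML1 early ch+ vs early ch-, −0.17 to 0.12 in ML1 vs HL60 in early ch+, −0.0326 to 0.26 in ML1 vs HL60 in early ch- and −0.29 to 0.0216 in the line difference of ch+ vs ch-. Gja1 ranged from −0.0230 to 0.18 in early ch+ vs ctrl, −0.0799 to 0.13 in HL60 early ch+ vs ctrl, −0.0252 to 0.18 in HL60 early ch- vs ctrl, −0.13 to 0.0482 in HL60 early ch+ vs early ch- and −0.17 to 0.0074 in the line difference of ch+ vs ch- over the same omissions. Alcam ranged from −0.19 to 0.0496 in early ch+ vs ctrl, −0.23 to 0.0576 in HL60 early ch+ vs ctrl, −0.19 to 0.0496 in ML1 early ch+ vs ctrl and −0.15 to 0.14 in ML1 vs HL60 in early ch+ over the same omissions. Cdh2 ranged from −0.0985 to 0.0479 in early ch- vs ctrl, −0.13 to 0.0191 in HL60 early ch- vs ctrl, −0.0697 to 0.0767 in ML1 early ch- vs ctrl and −0.11 to 0.0400 in ML1 vs HL60 in early ch+ over the same omissions. Cdh11 ranged from −0.0090 to 0.14 in early ch- vs ctrl, −0.0565 to 0.0475 in late vs early ch+, −0.0222 to 0.13 in HL60 early ch- vs ctrl, −0.0414 to 0.19 in HL60 early ch+ vs early ch- and −0.0688 to 0.0767 in ML1 late vs ctrl over the same omissions. Cdh11 ranged from −0.0225 to 0.25 in ML1 early ch- vs ctrl, −0.0209 to 0.25 in ML1 early ch+ vs early ch-, −0.0332 to 0.20 in ML1 vs HL60 in early ch+, −0.0915 to 0.18 in ML1 vs HL60 in early ch- and −0.0725 to 0.20 in the line difference of ch+ vs ch-.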
